A study of Mus musculus with 4 samples.

Results

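Wnt target genes of pericentral hepatocytes were followed across 4 spatial transcriptomes of mouse liver. The set held 9 genes of the 31253 features measured: Axin2, Lgr5, Tbx3, Rnf43, Znrf3, Cyp2e1, Cyp1a2, Gulo and Lhpp. They were chosen by name, as targets of Wnt signalling or enzymes of the pericentral zone, and all 9 symbols were found. Liver sections were measured on 10x Visium slides, whose spots each collect RNA from a patch of several cells and count it in unique molecular identifiers (UMIs). The groups were MAFL, with a diet labelled WD for 8 weeks and 2 sections, and MASH, with the same diet for 16 weeks and 2 sections. The labels give no strain, sex, age or allele, and nothing in them ties a section to its own animal. Every p-value thus measures a spread between sections, which may be technical. In fits with the section as a block, it is the spread between sections of the contrast made within each. No section without the diet was analysed here, and model and weeks change together in the labels.

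A minimum of 500 UMIs removed 3 spots each from MAFL-1 and MASH-1, after which 1862 to 2467 spots remained in a section, with 32249289 to 63808230 UMIs and a median of 15430.5 to 25291 UMIs per spot. Between 1182 and 1725 spot barcodes recurred in any pair of sections, as they do on slides that reuse 1 set of position codes. Levels are given in CPM, UMIs scaled to the total of the section or of the spots named.

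In Wnt signalling, a ligand bound to a Frizzled receptor and its co-receptor stops the destruction complex from degrading beta-catenin, which then enters the nucleus and activates genes together with TCF/LEF factors. R-spondins add to the signal by binding LGR receptors and removing the ligases that would clear Frizzled from the membrane. In the liver lobule the endothelium of the central vein is a known source of Wnt2, Wnt9b and Rspo3, and hepatocytes around that vein carry the target genes, while hepatocytes near the portal vein carry other enzymes such as Cyp2f2. Of the 9 genes, Axin2 (a scaffold of the destruction complex), Rnf43 and Znrf3 (membrane ubiquitin ligases that clear Frizzled) are feedback inhibitors, Lgr5 is a receptor for R-spondins, and Tbx3 is a T-box transcription factor. Cyp2e1 oxidises ethanol and paracetamol, Cyp1a2 oxidises caffeine and is also a target of the aryl hydrocarbon receptor, Gulo makes the last step of vitamin C synthesis, and Lhpp is a phosphatase that acts on phosphohistidine.

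In the GRCm38.p6 assembly (mm10) of RefSeq, all 9 are protein-coding genes. Axin2 lies at chr11:108917828-108950783, Rnf43 at chr11:87663087-87735539, Znrf3 at chr11:5276329-5444847, Lgr5 at chr10:115450314-115587780, Tbx3 at chr5:119670534-119684724, Cyp2e1 at chr7:140763819-140774990, Lhpp at chr7:132610615-132706420, Cyp1a2 at chr9:57676937-57683655 and Gulo at chr14:65986786-66009254. Promoter sequences were at hand for 4 of the 9 genes, with 2 start sites for Rnf43. The 250 bases before the start are shown for both P450 genes, because both windows held a TCF/LEF core motif (CTTTGA, or TCAAAG on the other strand) and a TATA box (TATAA). A choice made by motif says nothing about their gradients. Capitals mark both motifs, and sequences run 5′ to 3′ on the strand of the gene, Cyp2e1 from chr7:140763569-140763818 on the plus strand and Cyp1a2 from chr9:57683656-57683905 on the minus strand (RefSeq).
Cyp2e1: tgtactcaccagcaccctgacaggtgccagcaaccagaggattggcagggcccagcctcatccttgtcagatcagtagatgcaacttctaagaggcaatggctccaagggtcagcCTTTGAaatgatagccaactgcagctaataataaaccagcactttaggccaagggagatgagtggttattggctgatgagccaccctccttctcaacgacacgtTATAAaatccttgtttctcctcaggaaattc
Cyp1a2: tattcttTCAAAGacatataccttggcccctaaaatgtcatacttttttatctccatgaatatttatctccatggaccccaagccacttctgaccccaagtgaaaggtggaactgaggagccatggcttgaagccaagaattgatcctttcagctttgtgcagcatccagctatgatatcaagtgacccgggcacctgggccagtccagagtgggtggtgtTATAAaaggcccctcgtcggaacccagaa

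The core motif began 135 bases before the start of Cyp2e1 and 243 before that of Cyp1a2, and the TATA box 31 and 29 bases before. The core was also in 4544 of 32851 promoter windows of the same length (13.8%, both strands) and the TATA box in 5255 (16.0%). The windows of Axin2 and Rnf43 held neither set of letters. That of Axin2, chr11:108920099-108920348, lies before a start inside the gene span given above, as does 1 window of Rnf43. The bases before the span of Axin2 were thus not searched. The core of the xenobiotic response element, to which the aryl hydrocarbon receptor binds (GCGTG, both strands), was found 71 bases before 1 start of Rnf43 and in 28.2% of all windows, and not in the window of Cyp1a2. These matches describe the letters and were not tested as binding sites.

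Position in the lobule was read from 2 genes outside the set. Spots of each section were ranked by the log2 ratio of UMIs of Cyp2f2, a periportal P450, to those of Cyp2c50, a pericentral one, each plus 1, and the lowest and highest of 3 equal classes are called the pericentral and the periportal class. All 9 genes were higher in the pericentral class, in each of the 4 sections, and all 9 passed the test (edgeR's quasi-likelihood test on UMIs summed per class, section as a block, Benjamini-Hochberg adjusted p under 0.05). Over all genes 2251 of 11926 passed (18.9%), and 1194 were higher pericentrally (10.0%). The median log2 fold change of the 9 was 2.14, against 0.00 over all genes tested.

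Among the feedback genes and receptors, Lgr5, Tbx3 and Axin2 had the steepest gradients. Tbx3 stood at 17.5, 33.9, 27.4 and 25.1 CPM in the pericentral class (both MAFL sections first and then both MASH sections, in the order of their numbers, as throughout) and at 4.22, 8.48, 4.84 and 2.72 CPM in the periportal class. The lowest pericentral value was more than the highest periportal one, and the log2 fold change 2.40 with an SE of 0.14, adjusted p = 4.39e-07 in edgeR).

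Lgr5 and Axin2 were sparse. Lgr5 gave 26, 31, 47 and 33 UMIs in the pericentral class (2.45, 2.67, 2.63 and 3.21 CPM) and 4, 11, 11 and 2 in the periportal class (0.344, 0.758, 0.419 and 0.0907 CPM). Its pericentral level was nearly the same in every section, while the periportal value rested on few molecules. The ratio in MASH-2, 35.4, had an exact 95% interval of 9.05 to 304 for counting error, and the log2 fold change over all sections was 2.79, with an SE of 0.30 and an adjusted p of 1.10e-07 in edgeR. Axin2 gave 13, 33, 49 and 54 UMIs pericentrally (1.23, 2.84, 2.74 and 5.25 CPM) and 7, 14, 15 and 20 periportally (0.603, 0.965, 0.572 and 0.907 CPM). The periportal values lay between 0.572 and 0.965 CPM on few UMIs, and the pericentral level was lowest in MAFL-1 and highest in MASH-2 (4.01-fold, SE 0.23 in log2, adjusted p = 6.51e-08 in edgeR).

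The ligase genes Rnf43 and Znrf3 were only slightly graded. Rnf43 stood at 7.26, 8.77, 11.4 and 7.68 CPM pericentrally and at 3.96, 6.82, 7.51 and 3.17 CPM periportally, so that the ranges of the classes met between sections although each section had the same direction (log2 fold change 0.70 with an SE of 0.12, adjusted p = 5.32e-05 in edgeR). Znrf3 stood at 7.07, 7.91, 9.12 and 5.25 CPM pericentrally and at 5.34, 6.07, 5.30 and 4.76 CPM periportally. Its fold change was the smallest of the set (log2 0.45, SE 0.13, adjusted p = 0.0100 in edgeR), and the call was lost without MASH-1 (0.26, adjusted p = 0.315), in DESeq2 (adjusted p = 0.211), with 5 classes in place of 3 (adjusted p = 0.0504) and with ranking inside bins of total UMIs (adjusted p = 0.110).

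The metabolic genes fell 4- to 6-fold from the pericentral to the periportal class. Cyp2e1 stood at 6568, 9125, 10591 and 10688 CPM pericentrally and at 1369, 2328, 2653 and 1964 CPM periportally (log2 2.14 with an SE of 0.07, adjusted p = 9.84e-21 in edgeR). Cyp1a2 stood at 166, 275, 297 and 180 CPM and at 39.9, 80.5, 64.5 and 29.9 CPM (2.12, SE 0.11, adjusted p = 6.69e-06). For both genes every pericentral value was above every periportal one.

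Gulo and Lhpp had gradients of like size. Gulo stood at 197, 291, 421 and 320 CPM pericentrally and at 51.5, 89.04, 82.95 and 48.6 CPM periportally (log2 fold change 2.15 with an SE of 0.20, adjusted p = 0.00843 in edgeR). Lhpp stood at 73.5, 87.1, 125 and 85.9 CPM and at 16.3, 19.9, 16.6 and 7.62 CPM (2.66, SE 0.28, adjusted p = 0.0128). Their adjusted p-values were larger than those of the P450 genes. Without MASH-1 neither passed (adjusted p = 0.0604 for Gulo and 0.0944 for Lhpp), and Lhpp did not pass without MAFL-1 (0.0558), while the log2 fold changes were 2.07 to 2.79 in these fits.

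The gradients were then resolved into 10 equal parts of the ranking in each section, as a description without a test. Cyp2e1, Cyp1a2, Gulo and Lhpp were highest in part 1, the most pericentral, in all 4 sections and declined from there. Lhpp had the highest mean share of the set in the most pericentral parts, with 43.0 ± 4.43% (SD, n = 4 sections) of its CPM summed over the parts in the first 2 of them, where an even spread would give 20%. The share was 37.7 ± 3.26% for Cyp1a2, 37.9 ± 4.62% for Gulo, 34.1 ± 3.72% for Cyp2e1 and 37.4 ± 15.2% for the sparse Lgr5, so these spreads overlapped. In MASH-2 the share was higher for Lgr5 (57.4%) than for Lhpp (48.9%). With other binning or ranking the lowest mean shares were 36.8% for Lhpp, 33.2% for Cyp1a2, 35.3% for Gulo, 33.2% for Cyp2e1 and 35.9% for Lgr5.

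The plateau of Cyp2e1 was broadest in MASH-1. There it held 11058, 10635, 10355 and 9847 CPM in the first 4 parts and first dropped to 50% of its maximum in part 8, against part 5 in MAFL-1, 6 in MAFL-2 and 7 in MASH-2. Tbx3 peaked in part 1 to 3, with 37.1 ± 3.20% in the first 2 parts. Axin2 was highest in part 2 or 3 in every section, not in the first, and had 32.1 ± 3.95% there, though its UMIs in each of the 10 parts were few. Rnf43 (26.8 ± 2.90%) and Znrf3 (22.6 ± 4.59%) were close to an even spread, and Znrf3 in MASH-2 peaked in part 6.

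**Figure D1:**
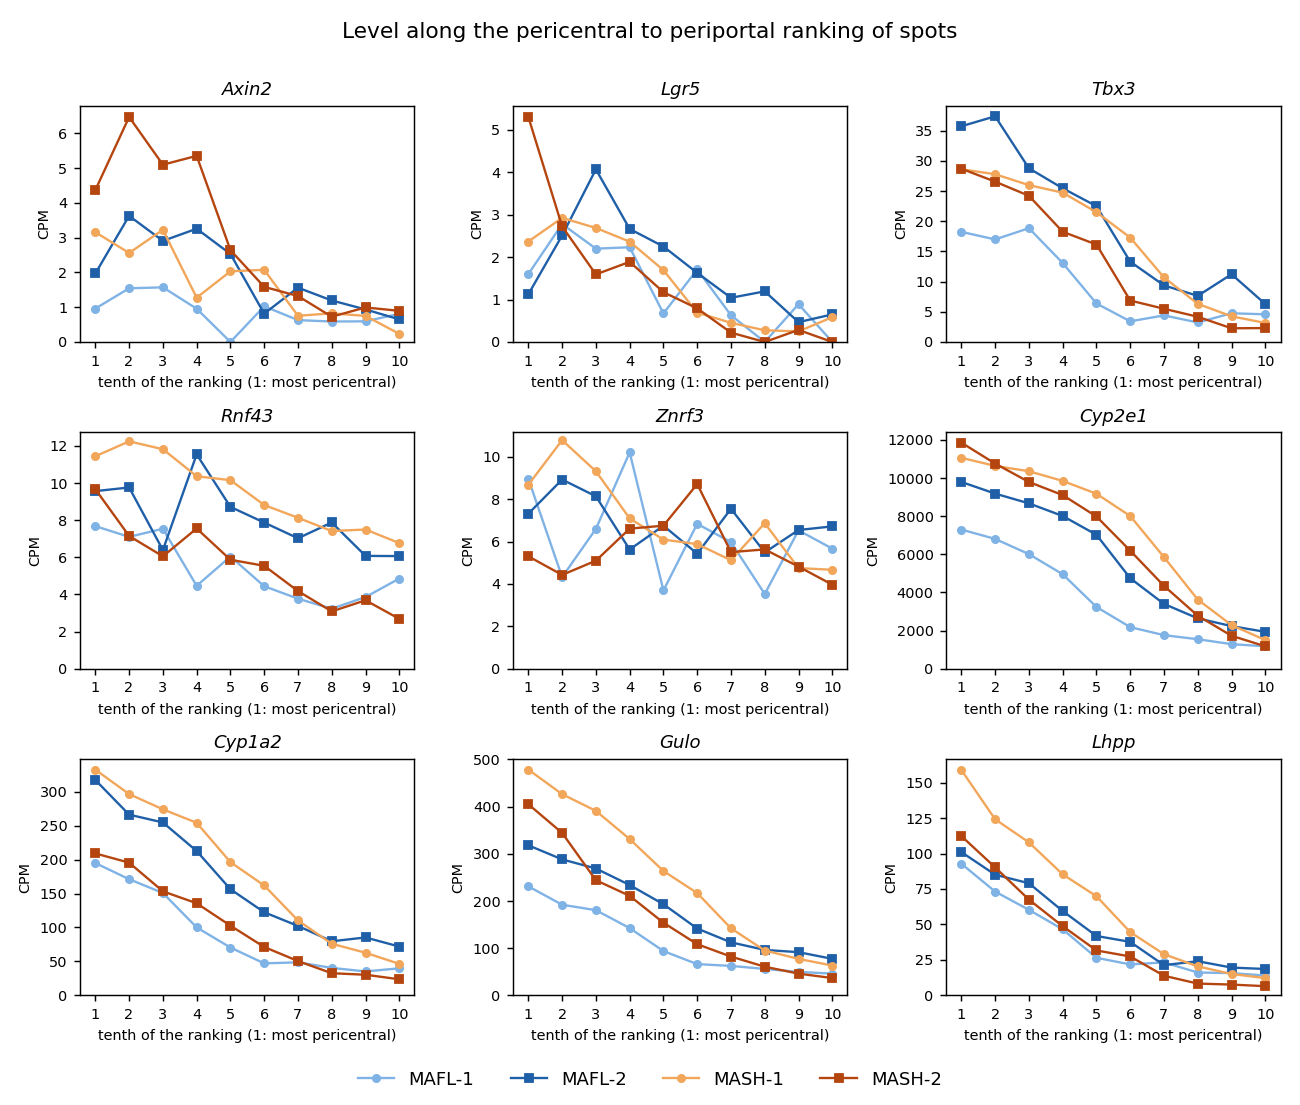
Level in CPM (y axis, from 0) of each of the 9 genes in 10 equal parts of the ranked spots (x axis, 1 the most pericentral), 1 line per section, without error bars. Cyp2e1, Cyp1a2, Gulo and Lhpp start highest in part 1 in all 4 sections, whereas Znrf3 has no steady slope and Axin2 and Lgr5 are ragged because few UMIs were counted.

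Shares of spots with at least 1 UMI were compared after thinning each spot to 5000 UMIs, which 98.3 to 99.1% of spots reached. Cyp2e1 was seen in 100% of pericentral and in 98.96 to 100% of periportal spots, so its gradient lay in the amount per spot and not in the share of spots. Cyp1a2 was seen in 52.3, 72.7, 75.8 and 59.4% of pericentral spots and in 17.01, 34.8, 26.5 and 11.8% of periportal spots. For Lhpp the shares were 28.04, 35.3, 46.2 and 32.6% and 6.80, 10.1, 7.98 and 4.35%. In the sparse genes the same order held at low shares, with Lgr5 in 1.199 to 2.12% of pericentral and in at most 0.296% of periportal spots, and no Lgr5 UMI in the 620 thinned periportal spots of MASH-2 (exact 95% upper bound 0.593%). Rnf43 shares in MAFL-2 (3.40 and 3.53%) and MASH-1 (3.97 and 4.29%) did not differ in the direction of its CPM, within their counting intervals. Without thinning, the pericentral and periportal shares were 43.1 and 14.4% for Tbx3 in MASH-1, where the periportal spots were the deeper ones. A spot with a UMI is not a cell that expresses the gene, and RNA can spread between neighbouring spots. In spots, fewer cells of a kind and less RNA per cell cannot be told apart.

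Glul, glutamine synthetase, is known for a narrow band of hepatocytes directly at the central vein and was used to divide the pericentral class further. Its spots were ranked by the share of Glul among their UMIs, within 5 bins of total UMIs, and the highest and lowest of 3 classes are called Glul-rich and Glul-poor. Spots rich in Glul had 636, 935, 1172 and 1647 CPM of it and spots poor in it 52.8, 107, 146 and 162 CPM, as the division was made. Of the 9 genes 8 were higher in the Glul-rich spots, in a comparison in which 495 of 9844 genes passed (5.03%) and 261 were higher (2.65%) in edgeR. The median log2 fold change of the 9 was 0.83, against 0.00 over all genes. Other zone genes moved too. Of 21 other pericentral hepatocyte genes 16 were higher, as were 10 of 13 other Wnt targets tested, and 10 of 18 periportal genes were lower. The division thus also sorted spots along the pericentral-to-periportal axis, and a layer at the vein was not separated from that axis.

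Lhpp stood at 110, 135, 189 and 142 CPM in Glul-rich and at 50.01, 56.9, 74.0 and 37.5 CPM in Glul-poor spots, without overlap (log2 fold change 1.38 with an SE of 0.07, adjusted p = 8.38e-12 in edgeR). Cyp1a2 stood at 240, 353, 411 and 257 CPM and at 114, 217, 207 and 116 CPM (0.94, SE 0.05, adjusted p = 1.43e-12). Gulo (0.82, SE 0.10, adjusted p = 0.0315), Tbx3 (0.83, SE 0.11, adjusted p = 1.87e-07), Axin2 (1.12, SE 0.29, adjusted p = 0.00941) and Lgr5 (1.61, SE 0.34, adjusted p = 0.000992) were also higher, in 4 of 4 sections each. Lgr5 gave 18, 15, 20 and 23 UMIs in Glul-rich and 2, 8, 13 and 2 in Glul-poor spots, with ratios of 9.23 (exact 95% interval 2.21 to 82.0), 1.88, 1.57 and 11.9 (2.95 to 104).

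Cyp2e1 differed little across this finer division. It stood at 7196, 9485, 10738 and 11342 CPM in Glul-rich and at 5950, 8866, 10379 and 10091 CPM in Glul-poor spots (log2 fold change 0.13 with an SE of 0.03, adjusted p = 0.0321 in edgeR). Rnf43 passed narrowly (0.55, SE 0.17, adjusted p = 0.0403), and Znrf3 did not pass, with 5.73, 8.28, 10.04 and 5.94 CPM against 7.26, 7.76, 8.48 and 6.01 CPM (0.04, SE 0.18, adjusted p = 0.964). Calls here rested on all 4 sections: 5 of the 9 genes passed without MASH-1 (Axin2, Rnf43 and Gulo did not), 4 without MASH-2 (Lgr5, Rnf43 and Cyp2e1 did not, and Axin2 had too few UMIs), and 4 in DESeq2 (Tbx3, Cyp1a2, Gulo and Lhpp). Markers of the central vein endothelium moved the same way, with 81.4, 81.3, 132 and 235 CPM summed over 10 genes in Glul-rich spots and 38.6, 35.9, 54.9 and 82.7 CPM in Glul-poor spots, none at 0 in a whole section. Haemoglobin and other blood genes moved with them (3420.3, 1372, 6000.4 and 2381 against 1287, 759.7, 2987 and 1192 CPM). Their part in the result was not tested.

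**Figure D2:**
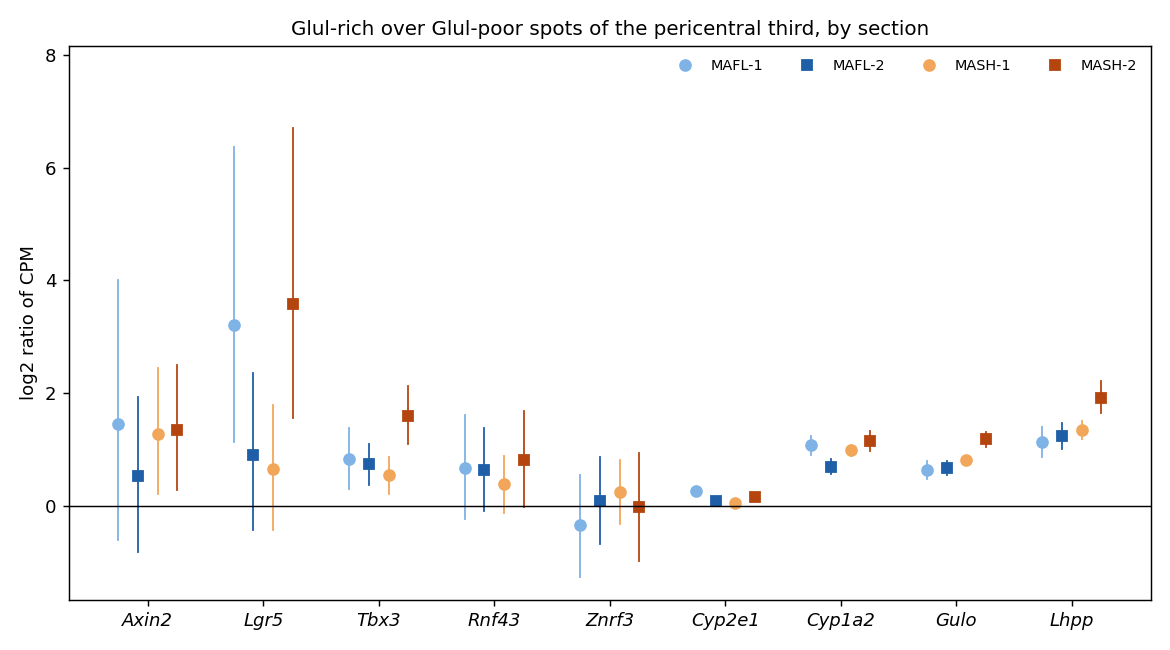
Log2 ratio of CPM in Glul-rich over Glul-poor spots of the pericentral class (y axis) for each gene (x axis), 1 point per section with its exact 95% interval for counting error. All 4 points of Lhpp, Cyp1a2, Gulo and Tbx3 are above 0, those of Cyp2e1 lie just above 0, and those of Znrf3 lie on both sides.

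The genes most like each member were read from the 10 parts of the 4 sections (Pearson's r over 40 points of log2(CPM + 1), each gene centred within its section, 3987 candidate genes with a mean of at least 20 CPM). The points share libraries and ranks, so r describes the pattern and carries no p-value. Lhpp (r = 0.993) and Gulo (0.992) were most like Oat, the mitochondrial ornithine aminotransferase, and next to Lhpp came Glul (0.988). Cyp1a2 (0.993) and Tbx3 (0.980) were most like the P450 gene Cyp2c37, and Cyp2e1 was most like Rgn, regucalcin (0.995), and the organic anion transporter gene Slco1b2 (0.992). The sparse genes had lower values, Axin2 with Psma7 (0.875) and Glul (0.858), Lgr5 with the lipid droplet gene Fitm2 (0.884) and Rnf43 with Ecm1 (0.888). Znrf3 reached only 0.688, with Apmap. Among the 9 genes, r was 0.99 for each pair of Cyp1a2, Gulo and Lhpp, and 0.30 to 0.45 for Znrf3 with the others.

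Whole sections of MASH and MAFL liver were compared next, and none of the 9 genes passed. Over all genes 62 of 13593 passed (0.456%). The smallest adjusted p of the set was 0.537 in edgeR, for Lgr5, and 0 members had an unadjusted p under 0.05 or passed in DESeq2 or limma. The ranges of the groups overlapped for all 9, a share not counted over all genes.

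Axin2 stood at 0.868 and 1.86 CPM in MAFL and at 1.54 and 2.36 CPM in MASH (log2 fold change 0.37 with an SE of 0.42, adjusted p = 0.662 in edgeR), on 28 to 105 UMIs per section. Lgr5 stood at 1.24 and 1.68 CPM and at 1.29 and 1.03 CPM (-0.43, SE 0.35). Tbx3 stood at 9.30 and 18.9 CPM and at 15.4 and 10.5 CPM (-0.22, SE 0.43, adjusted p = 0.809), so that each group held 1 high and 1 low section. Rnf43 (5.27 and 7.97 CPM against 9.17 and 4.91 CPM) and Znrf3 (6.20 and 6.82 CPM against 6.68 and 5.47 CPM) showed the same mixture.

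Cyp2e1 stood at 3569 and 5499 CPM in MAFL and at 6631 and 5301 CPM in MASH (log2 fold change 0.30 with an SE of 0.28, adjusted p = 0.597 in edgeR). Cyp1a2 stood at 88.8 and 160 CPM and at 165 and 80.5 CPM (-0.11, SE 0.51, adjusted p = 0.924). Gulo stood at 111 and 175 CPM and at 225 and 135 CPM (0.24, SE 0.37, adjusted p = 0.756). Lhpp stood at 38.5 and 46.6 CPM and at 59.5 and 31.8 CPM (0.02, SE 0.36, adjusted p = 0.985). MAFL-1 and MASH-2 were the lowest sections for 8 of the 9 genes, Axin2 being the exception. This was not counted over all genes, so it is not read as particular to the members.

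The ranking gene Cyp2c50 was divided in the same way, with 271, 551, 532 and 283 CPM over whole sections. With borders set once over the pooled spots, 13.2, 39.3, 55.3 and 20.7% of the spots of the 4 sections fell in the pericentral class. The sections low in 8 of the 9 genes, Axin2 excepted, also had fewer spots ranked as pericentral by these borders, in either group. The score contains Cyp2c50 itself, so this share depends on its level and is no separate observation. The part of this difference in share in the whole-section values was not tested. The comparison within classes fixes the rank within each section and not the score. By the common borders 51.1, 21.7, 18.7 and 43.5% of the spots were periportal. With library totals in place of TMM scaling, the median gene shifted by 0.10, which is as large as several of the values above.

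**Figure D3:**
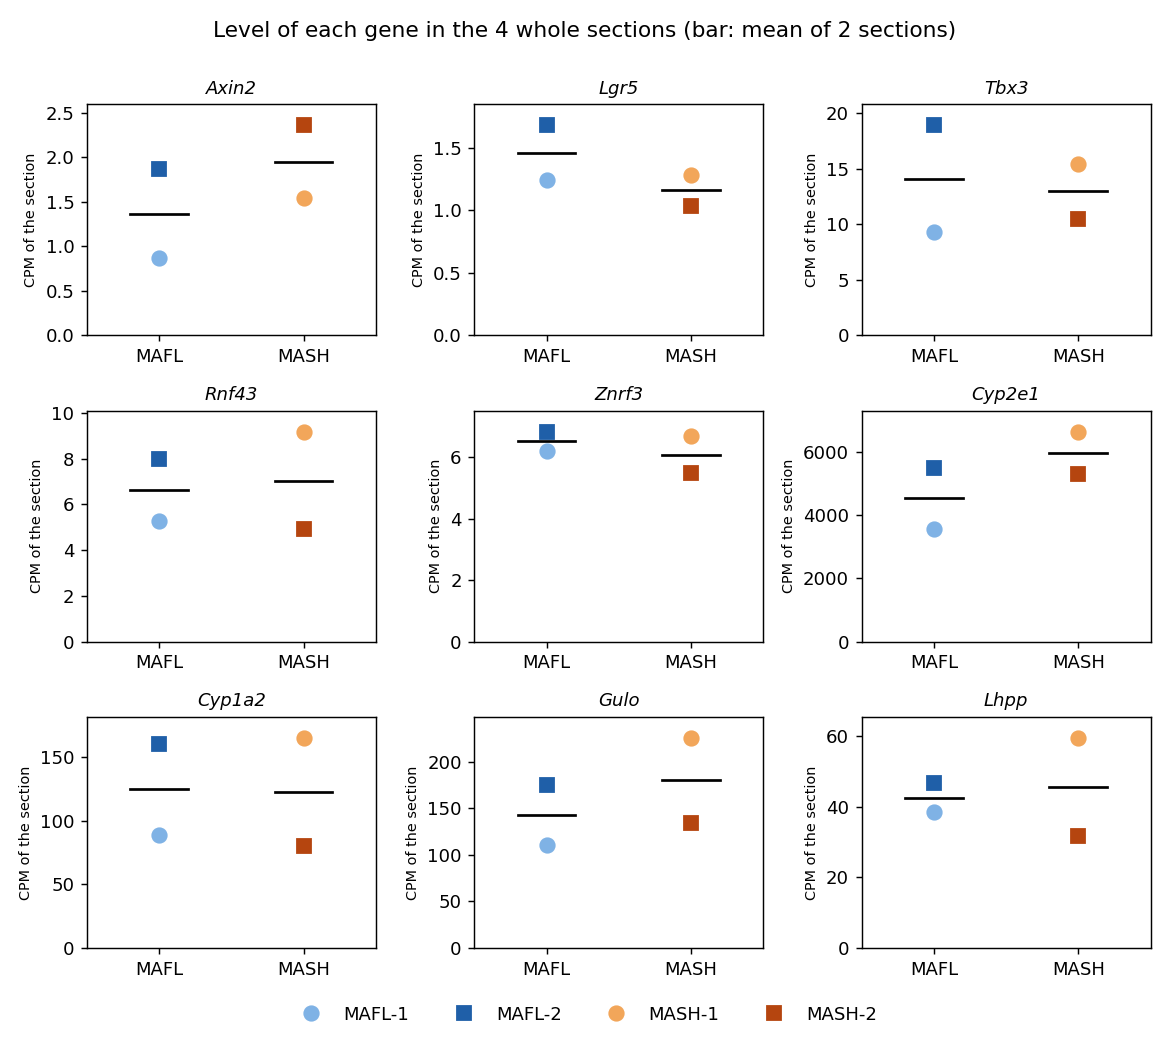
CPM over whole sections (y axis, from 0) of each of the 9 genes in MAFL and MASH (x axis), 1 point per section and a bar at the mean of 2 sections. In every panel the ranges of the groups overlap, and in 8 of 9 panels MAFL-1 and MASH-2 are the lowest points. Neither was counted over all genes.

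Within the pericentral class, no member passed between MASH and MAFL either, against 113 of 11765 genes (0.960%) in edgeR, and 0 had an unadjusted p under 0.05 or passed in DESeq2 or limma. Gulo had the smallest adjusted p, with 197 and 291 CPM in MAFL and 421 and 320 CPM in MASH (log2 fold change 0.49, SE 0.27, adjusted p = 0.374). Both MASH sections were above both MAFL sections for Gulo and for Cyp2e1 (0.31, SE 0.25, adjusted p = 0.540), but not for Lhpp (0.29, SE 0.24) or Axin2 (0.79, SE 0.46, adjusted p = 0.403). Tbx3 (-0.09, SE 0.32), Cyp1a2 (0.01, SE 0.38) and Lgr5 (0.05, SE 0.33) had values near 0 with wide errors, so changes of moderate size in either direction remain within the error.

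In the periportal class 8 of the 9 genes could be tested, Lgr5 having too few UMIs, and none passed against 95 of 12509 genes (0.759%) in edgeR, nor in DESeq2 or limma, and 0 had an unadjusted p under 0.05. Tbx3 stood at 4.22 and 8.48 CPM in MAFL and at 4.84 and 2.72 CPM in MASH (log2 fold change -0.84, SE 0.43, adjusted p = 0.356). Lhpp stood at 16.3 and 19.9 CPM and at 16.6 and 7.62 CPM (-0.66, SE 0.40, adjusted p = 0.446). For both genes MASH-2 was the low section. Without a filter on low counts Tbx3 (adjusted p = 0.0253) and Lhpp (0.0218) passed as lower in MASH, as did Lhpp without MASH-1 (-1.36, adjusted p = 0.0148).

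The steepness of the gradient itself differed between the groups for Gulo and Lhpp. The test of the difference between the pericentral-to-periportal contrasts of MASH and MAFL called 54 of 12511 genes (0.432%), 33 of them with a steeper pericentral rise in MASH (0.264%), and 2 of the 9 members were among these. The median difference over the 9 was 0.66 in log2, against 0.00 over all genes.

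The ratio of Lhpp between the classes was 4.51 and 4.37 in MAFL and 7.55 and 11.3 in MASH (log2 difference 0.96, SE 0.13, adjusted p = 4.99e-05 in edgeR). That of Gulo was 3.82 and 3.27 in MAFL and 5.08 and 6.59 in MASH (0.66, SE 0.10, adjusted p = 0.000361). These SEs rest on a spread moderated over all genes. Over the 2 sections of a group, the log2 ratio of Lhpp was 2.15 ± 0.03 (SD) in MAFL and 3.21 ± 0.41 in MASH. That of Gulo was 1.82 ± 0.16 in MAFL and 2.53 ± 0.27 in MASH. For both genes the ratios of both MASH sections were above those of both MAFL sections, and MASH-2 had the largest. The first held for 5 of the 9 members and the second for 8. Neither was counted over all genes, so neither is read as particular to the members.

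Of the other members, Tbx3 (ratios 4.16, 3.996, 5.66 and 9.22, log2 difference 0.72, SE 0.20, adjusted p = 0.146) and Cyp1a2 (4.16, 3.42, 4.604 and 6.02, difference 0.44, SE 0.11, adjusted p = 0.0694) did not pass in edgeR, although both MASH ratios were above both MAFL ratios. The same held for Axin2 (ratios 2.03, 2.94, 4.79 and 5.79, difference 0.96, SE 0.49, adjusted p = 0.705), with UMIs too few for a precise ratio. The ratios of Cyp2e1 overlapped (4.80, 3.92, 3.99 and 5.44, difference 0.06, SE 0.13), as did those of Rnf43, Znrf3 and Lgr5. Among 16 tested genes of a list of other Wnt targets, 2 were called in the same direction, Oat (0.95, SE 0.11) and Glul (0.86, SE 0.10), both with an adjusted p of 1.58e-06, and none in the other. The periportal enzymes Gls2 (-0.57, adjusted p = 0.00239), Sds (-0.51, adjusted p = 0.00632) and Hal (-0.48, adjusted p = 0.00924) were called as more periportal in MASH.

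Depth per spot moved with this result between the groups. The median UMIs of pericentral and periportal spots were 15325 and 16716 in MAFL-1, 17774 and 22610 in MAFL-2, 21587 and 33041 in MASH-1 and 15147 and 34211.5 in MASH-2. The depth ratio was largest in MASH-2, as were the class ratios of Lhpp and Gulo. Between the MAFL sections the order was opposite. MAFL-2 had the larger depth ratio, and MAFL-1 the larger class ratios of Lhpp and Gulo. When spots were ranked within 5 bins of total UMIs, which gives both classes spots of every depth, no member passed. The log2 difference was 0.26 for Lhpp (adjusted p = 0.902 in edgeR) and 0.08 for Gulo (adjusted p = 0.982). Those of Tbx3 (-0.21) and Cyp1a2 (-0.09) turned negative. Depth itself rose along the ranking, in MASH-2 from a median of 15004 UMIs in part 1 to 42053 in part 10. Bins of depth therefore mix positions in the lobule, and this ranking cannot separate depth from position. Gulo also did not pass without MAFL-2 (0.56, adjusted p = 0.217), whereas Lhpp passed with each section left out in turn (adjusted p up to 0.000273). Without MASH-1 Tbx3 (1.08, adjusted p = 0.00280) and Cyp1a2 (0.59, adjusted p = 3.11e-05) passed as well, and without MASH-2 Cyp1a2 did (0.33, adjusted p = 0.0167). With the replicate number of the section titles as a block, no gene passed (log2 difference 0.998 for Lhpp and 0.66 for Gulo, adjusted p = 1 for both). Markers of other cells differed in the same comparison. The 5 blood cell markers all had a positive difference (median 1.21), as had 9 of 10 markers of the central vein endothelium (median 0.51) and 10 of 10 of the sinusoidal endothelium (median 0.22), whereas all 10 stellate cell and fibroblast markers were negative (median -0.25), and none of these passed. Of 10 macrophage markers 1 passed, Lyz2, with a more periportal level in MASH (-0.49, adjusted p = 0.0110 in edgeR). Their part in the result was not tested.

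**Figure D4:**
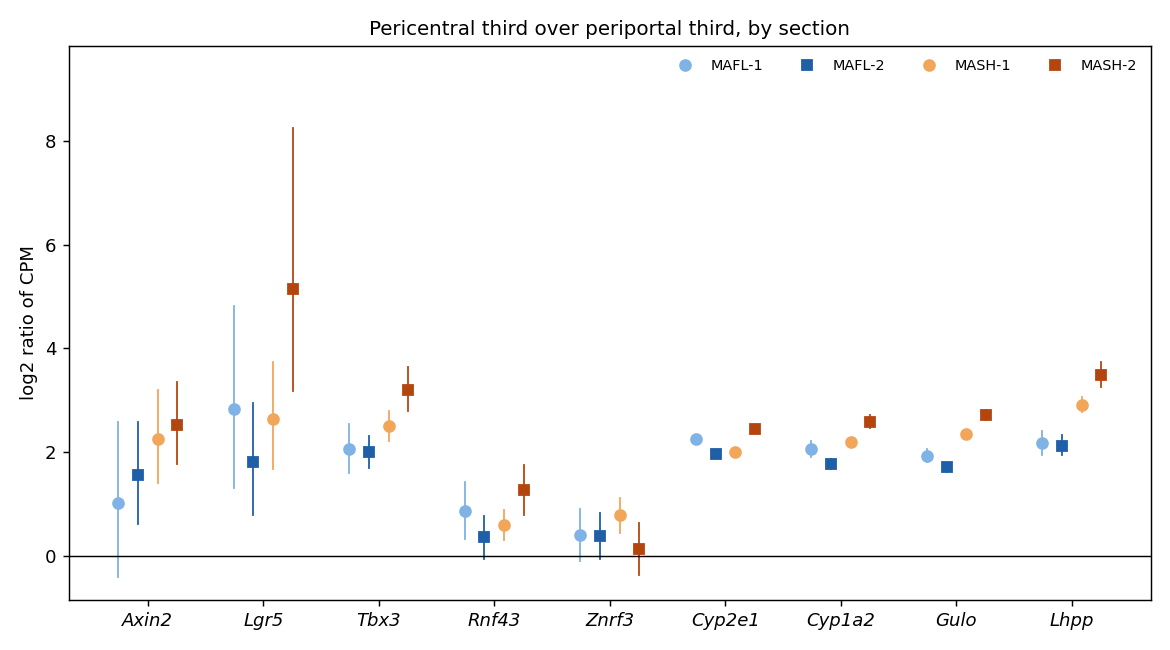
Log2 ratio of CPM in the pericentral over the periportal class (y axis) for each gene (x axis), 1 point per section with its exact 95% interval for counting error. All points lie above 0 and MASH-2 is the highest in 8 of 9 genes. In 5 of 9, Lhpp and Gulo among them, both MASH points are above both MAFL points. Neither count was made over all genes.

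The genes that send, receive and limit the signal were described from lists drawn up for this purpose. Of 10 Wnt and R-spondin ligands, 4 had enough UMIs to be tested between the classes in edgeR, and Wnt2 (log2 fold change 2.22, SE 0.17, adjusted p = 1.63e-11) and Rspo3 (1.75, SE 0.16, adjusted p = 3.41e-10) were higher pericentrally. Rspo3 stood at 3.02, 4.56, 8.61 and 13.8 CPM in the pericentral class. Both MASH sections were above both MAFL sections, and the difference between groups did not pass there (1.40, SE 0.29, adjusted p = 0.0656) or over whole sections (1.04, SE 0.29, adjusted p = 0.143). Wnt2 stood at 5.37, 3.53, 6.60 and 9.33 CPM pericentrally (0.70 between groups, SE 0.28, adjusted p = 0.238). Wnt9b was sparse, at 0.434, 0.498, 0.533 and 0.695 CPM over whole sections on 14, 19, 34 and 31 UMIs. In Glul-rich spots Rspo3 was again higher (2.02, SE 0.20, adjusted p = 1.11e-11), while Wnt2 did not pass (0.56, adjusted p = 0.212).

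Of the receptors, 4 of 11 tested were called along the lobule, against 1 of 8 destruction complex genes and 1 of 7 co-activators, beside 18.9% of all genes. Of the 11 receptor genes tested, the co-receptor gene Lrp5 (0.40, adjusted p = 0.0343) and Fzd4 (0.24, adjusted p = 0.0349) were higher pericentrally in edgeR, and Ror1 (-0.74, adjusted p = 0.0459) and Lgr4, the widely expressed relative of Lgr5 (-0.28, SE 0.06, adjusted p = 0.00114), were lower. Lgr4 stood at 38.2 and 41.8 CPM in MAFL and at 30.9 and 27.9 CPM in MASH over whole sections (-0.55, SE 0.16, adjusted p = 0.162). The kinase gene Gsk3b was the 1 gene of 8 of the destruction complex that passed (0.26, adjusted p = 0.0203), Bcl9l the 1 of 7 co-activators (0.40, adjusted p = 0.00115) and Tmed5 the 1 of 4 Wnt secretion genes (0.15, adjusted p = 0.0394). Of 5 inhibitors tested, Notum, which inactivates Wnt ligands by removing their lipid, was higher pericentrally (1.75, SE 0.08, adjusted p = 7.00e-17) and in Glul-rich spots (0.44, SE 0.11, adjusted p = 0.00541).

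Other targets and zone genes followed the ranking. Of 16 other Wnt targets tested between the classes, 13 were higher and 2 lower pericentrally, with the smallest p-values for Lect2 (2.31, SE 0.06), the transporter gene Slc13a3 (2.73, SE 0.09) and the tight junction gene Cldn2 (1.39, SE 0.06), with a median of 1.77. Of 21 other pericentral hepatocyte genes 20 were higher (Cyp2a5 2.99, Cyp7a1, which starts the making of bile acids from cholesterol, 1.44), and all 18 periportal genes were lower (Cdh1 -1.66, Arg1 -0.69). Of 10 xenobiotic receptors and targets tested 6 were higher pericentrally, among them Ahr, the receptor that induces Cyp1a2 (1.26, SE 0.13, adjusted p = 5.96e-06 in edgeR).

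Between MASH and MAFL over whole sections, calls in edgeR fell in 2 of the 16 lists: 1 of 21 other pericentral genes (Gstm3, a glutathione transferase, 2.01, adjusted p = 0.0157) and 3 of 10 macrophage markers (Lyz2, Tyrobp and Fcer1g). In the pericentral class, Gstm3 (2.22, adjusted p = 0.00647) and Cyp2c38 (1.45, adjusted p = 0.0160) rose in MASH in edgeR. There 3 of 10 macrophage markers (Lyz2 1.59, Tyrobp 1.46 and Fcer1g 1.18), 1 of 10 central vein endothelium markers (Fabp4 1.18, adjusted p = 0.0270) and 1 of 10 stellate cell and fibroblast markers (Col3a1 1.51, adjusted p = 0.0489) were also higher in MASH, and their part in the result was not tested. In the periportal class, the cell cycle gene Ccnd1 (1.58, adjusted p = 0.0414) was the 1 other Wnt target of 17 to pass, beside Gstm3 (1.63, adjusted p = 0.0385) and the same 3 macrophage markers (Lyz2 2.08, Tyrobp 1.63 and Fcer1g 1.22).

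Markers of other cells differed between the sections. Over whole sections macrophage markers summed to 445 and 568 CPM in MAFL and to 1032 and 1107 CPM in MASH, stellate cell and fibroblast markers to 250 and 235 CPM against 373 and 558 CPM, and central vein endothelium markers to 41.0 and 39.2 CPM against 61.7 and 81.6 CPM, with none of these 10 genes each at 0. Bile duct markers summed to 145, 117, 147 and 370 CPM, and blood markers to 2783, 1669, 4208 and 1420 CPM. In the zone comparison 8 of 9 tested central vein markers and 7 of 10 sinusoidal markers were higher pericentrally, 3 of 10 macrophage and all 8 bile duct markers were lower, 3 stellate markers were higher and 2 lower of 10, and none of 5 blood markers passed in edgeR. Their part in the values of the 9 genes was not tested.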

How the data were processed

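Per the file headers the authors ran Space Ranger 1.2.2 (reference mm10, per the submitters' processing notes) and deposited counts: whole numbers of UMIs per gene and spot, unscaled. The counter's settings and annotation are not given in the sources used here. Spots with at least 500 UMIs were kept, and counts were summed over sections, zone classes or Glul classes. Ties were broken at random with a fixed seed. Sums were tested with edgeR 4.0.16 (its quasi-likelihood test, robust, after TMM and filterByExpr, Benjamini-Hochberg over all genes tested, 0.05) in R 4.3.3, against DESeq2 1.42.0 and limma 3.58.1. Cyp2f2 and Cyp2c50 stayed out of zone tests and Glul out of its own, and each zone or Glul fit had the section as a block. Python 3.11.15 and scipy 1.17.1 did the rest. The fits were tested on simulated counts with 200 genes changed, 2-fold and 4-fold in equal number. For MASH against MAFL over whole sections, pericentrally and periportally, 51, 30 and 45 of the 2-fold changes passed. Of the 4-fold changes 88, 83 and 96 passed, and false calls were 10 of 149, 2 of 115 and 16 of 157. Between zones, for the difference and by Glul, 93, 69 and 92 of the 2-fold changes passed. There 99, 91 and 97 of the 4-fold changes passed, and false calls were 6 of 198, 8 of 168 and 15 of 204.

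A UMI is a molecule, so 32249289 to 63808230 UMIs per section leave little counting error for abundant genes. Intervals cover counting error only, and 3 UMIs correspond to 0.0470 to 0.0930 CPM. An exact two-sided permutation test of 2 sections against 2 cannot go below 0.3333, so shares of spots were not tested. Same-numbered sections did not deviate together (r = -0.195 over 13593 genes), and the titles' numbers were not used as pairs in the main fits. With 2 sections per group, the crossed pairing has the same r with the opposite sign, so MAFL-1 and MASH-2 deviated weakly together. This r cannot show whether the numbers mark a shared slide or batch.

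The 9 members and the 16 gene lists were chosen with earlier results of these data known, so agreement with those is no independent support. Named besides the members were up to 4 genes of smallest p per list, the sources and receptors Glul, Rspo3, Wnt2, Wnt9b and Lgr4, and both ranking genes. Gene positions and promoters come from RefSeq tables of GRCm38.p6. Alternatives were other size factors, filters, tools, spot minimums, class sizes and scores, ranking within bins of total UMIs, blocks, and leaving out each section.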

Additional observations from a re-analysis of the deposited data

Results flagged for a closer look

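The pericentral-to-periportal contrast of Lhpp was larger in MASH than in MAFL by 0.96 in log2 (SE 0.13) and that of Gulo by 0.66 (SE 0.10). Both stand out because a test of the difference between the groups itself passed in edgeR (adjusted p = 4.99e-05 and 0.000361). That test moderates the spread between sections over all genes. The ratios of both MASH sections were above those of both MAFL sections, as for 5 of the 9 members in all, a share not counted over all genes. Between the groups, median UMIs per spot moved with the contrast. They stood at 33041 and 34211.5 in periportal against 21587 and 15147 in pericentral spots of MASH-1 and MASH-2. With ranking within bins of total UMIs neither gene passed. Such bins also mix positions in the lobule, so the part of depth alone was not tested.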

How the results depend on the processing

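Counts of genes called and values of the 9 genes both moved with the setting. Over all settings the log2 difference in zone contrast ranged from 0.079 to 0.88 for Gulo and from 0.26 to 1.24 for Lhpp. DESeq2 called 627 genes over whole sections, 1145 between the zone classes, 28 for the difference in zone contrast, 261 and 378 within the pericentral and periportal classes, and 133 (4 members) by Glul. Without a filter the counts were 1153, 84 (4 members), 944 and 1251 (2 members) for whole sections, the difference, and the 2 classes. Limma called 22, 56 and 29 genes for MASH against MAFL over whole sections and in the 2 classes, and library totals 58 and 153 in the classes. With the replicate block, 0 genes passed over whole sections and 0 genes (0 members) for the difference. With no replicate block, so without the section in the model, 237 genes passed between zones and 15 (0 members) by Glul. A crossed pairing of section numbers, chosen after seeing the data, called 779, 447 and 1321 genes (2 members in the last). For the difference, 2 classes in place of 3 called 84 genes, Cyp2f2 alone 33, Cyp2c50 alone 83 (4 members), UMI bins 14 (0 members), and the outer of 5 classes 4 members. UMI bins called 69 genes pericentrally. Periportally 5 classes called 203, 2 classes 56, Cyp2c50 alone 41, and common borders, chosen after seeing the data, 208. By Glul 5 classes called 5 members. Values that changed sign were, over whole sections, Rnf43 (-0.032 in limma, -0.050 with the replicate block) and Lhpp (-0.072 and -0.063). For the difference they were Cyp2e1 (-0.16 with 2 classes, -0.032 with a score of 8 genes, -0.058 with Cyp2f2 alone, -0.46 in UMI bins), Tbx3 (-0.21 in bins) and Cyp1a2 (-0.090 in bins). Pericentrally they were Tbx3 (0.029 with library totals), Cyp1a2 (-0.022 in limma, -0.011 with the replicate block, -0.029 with Cyp2f2 alone, -0.23 in bins, -0.10 with common borders), Lgr5 (-0.38 in bins) and Lhpp (-0.036 in bins). Periportally they were Cyp2e1 (-0.070 with 5 classes), Axin2 (0.020 with 2 classes, 0.045 in bins, 0.0059 with common borders) and Gulo (0.047 with 2 classes, 0.10 in bins). Leaving out 1 section gave 20 to 535 genes over whole sections, 1428 to 2026 between zones, 24 to 370 (1 to 4 members) for the difference, 88 to 1246 pericentrally, 30 to 669 (0 to 1 member) periportally and 292 to 466 (4 to 7 members) by Glul. With 1 section left out, these values took both signs. Over whole sections the range was -0.092 to 1.07 for Axin2, -0.82 to 0.41 for Cyp1a2, -0.013 to 0.67 for Cyp2e1, -0.27 to 0.64 for Gulo, -0.61 to 0.44 for Lhpp, -0.62 to 0.42 for Rnf43 and -0.67 to 0.41 for Tbx3. Pericentrally the range was -0.53 to 0.44 for Cyp1a2, -0.035 to 0.13 for Lgr5, -0.14 to 0.60 for Lhpp, -0.30 to 0.46 for Rnf43, -0.52 to 0.48 for Tbx3 and -0.75 to 0.24 for Znrf3. Periportally the range was -0.54 to 0.21 for Axin2, -1.13 to 0.18 for Cyp1a2, -0.12 to 0.69 for Cyp2e1, -0.64 to 0.29 for Gulo and -0.89 to 0.40 for Rnf43. For the difference the range was -0.10 to 0.22 for Cyp2e1, -0.044 to 0.61 for Rnf43 and -0.36 to 0.41 for Znrf3. By Glul the range was -0.084 to 0.13 for Znrf3. The cause was not tested, apart from fewer sections or genes in the fit. A lone section in a group was assumed to vary like the other group. Few UMIs limit Axin2, Lgr5 and Wnt9b.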
